A study of Mus musculus with 12 samples.

Results

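The axon guidance ligands and receptors of the mouse were followed in the organ of Corti of clarin mutants. They were taken by symbol as every semaphorin of classes 3 to 7, plexin, neuropilin, Eph receptor, ephrin, Slit, Robo, netrin 1 to 5 and Unc5 gene, with Dcc and Neo1, which gave 70 of the 55348 genes counted. Of these, 35 encode ligands and 35 encode receptors, and the rule itself uses symbols alone, although the families were chosen with earlier results of these data known.

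Axon guidance molecules steer the growing tip of a nerve fiber by attraction or repulsion. Semaphorins act on plexins, with neuropilins as co-receptors for most class 3 semaphorins, ephrins on neighboring cells bind Eph receptors, Slits bind Robo receptors, and netrins act through Dcc, neogenin and Unc5 proteins. In the developing cochlea these families direct the peripheral fibers of the spiral ganglion neurons to the inner and outer hair cells, and many remain expressed in hair cells, supporting cells, neurons, glia and vessels after wiring is complete.

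RNA was sequenced from organs of Corti at postnatal day 21, freed of the stria vascularis and of the modiolus, in 3 libraries for each of 4 genotypes, 12 in all. Clrn1-/- mice carried a constitutive deletion of an exon of Clrn1, made with a floxed allele and PGK-cre, which acts in all tissues. Clrn2-/- mice carried the clarinet nonsense mutation of Clrn2, and Clrn1-/-Clrn2-/- mice, called double mutants below, came from crosses of both lines. Wild-type mice came from separate breedings, so that breeding and genotype cannot be told apart in any comparison with wild-type. Nothing in the sample labels says that the libraries of a genotype came from separate animals, and p-values measure the spread between these libraries only.

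The libraries held 30008679 to 41049302 counts on genes. Clrn1 was 25.8 ± 2.47 CPM (normalized read counts scaled to library size, mean ± SD, n = 3) in wild-type and 28.8 ± 2.83 in Clrn2-/- libraries, against 2.83 ± 0.184 where Clrn1 was deleted alone and 2.30 ± 0.482 in double mutants. Clrn2 was 2.72 ± 0.727 CPM in wild-type and 1.23 ± 0.172 in Clrn2-/-, and it was lower in Clrn1-/- as well, at 0.916 ± 0.107 CPM. All 10 hair cell markers and all 10 supporting cell markers listed were detected. Neuron markers were abundant, although the modiolus, which holds the neuron bodies, had been removed.

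A member was called changed when the adjusted p of edgeR's quasi-likelihood test, corrected over all 19052 genes tested, was at most 0.05 and the change was at least 1.5-fold. The test covered 69 of the 70 members. Robo3, a divergent Robo receptor, was left out by the filter on low counts, with 0 to 5 counts per library, where 3 counts amount to 0.0759 to 0.0983 CPM.

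The promoters of 4 called members, a pair of ephrin-A genes and a pair of class 3 semaphorins that each share a chromosome and a direction of change, are shown first. The promoter of Efna1, which lies beside the ephrin-A pair, is not shown. The 4 include the genes with the largest called increase (Efna3) and decrease (Sema3e), and were chosen after the values were seen. Efna3 and Efna4, ephrin-A genes that rose, are neighbors on the minus strand of chromosome 3. Sema3d and Sema3e, class 3 semaphorins that fell, lie on the plus strand of chromosome 5. Each sequence is the 250 bases before the RefSeq transcription start on GRCm38.p6, from 5′ to 3′ on the strand of the gene. The windows are chr3:89322940-89323189 for Efna3, chr3:89338029-89338278 for Efna4, chr5:12382916-12383165 for Sema3d and chr5:14025026-14025275 for Sema3e. Capitals mark matches on either strand to a GC box (GGGCGG, or CCGCCC on the other strand) or a CCAAT box (CCAAT, or ATTGG on the other strand).
Efna3: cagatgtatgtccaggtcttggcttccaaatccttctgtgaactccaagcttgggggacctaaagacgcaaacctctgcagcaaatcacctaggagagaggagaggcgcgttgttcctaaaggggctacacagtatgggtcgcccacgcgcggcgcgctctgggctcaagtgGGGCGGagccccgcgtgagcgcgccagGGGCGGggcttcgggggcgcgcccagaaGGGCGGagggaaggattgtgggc
Efna4: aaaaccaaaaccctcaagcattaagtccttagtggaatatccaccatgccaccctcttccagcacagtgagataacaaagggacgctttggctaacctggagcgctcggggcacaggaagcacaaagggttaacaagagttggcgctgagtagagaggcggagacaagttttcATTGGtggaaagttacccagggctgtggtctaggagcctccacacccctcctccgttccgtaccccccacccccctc
Sema3d: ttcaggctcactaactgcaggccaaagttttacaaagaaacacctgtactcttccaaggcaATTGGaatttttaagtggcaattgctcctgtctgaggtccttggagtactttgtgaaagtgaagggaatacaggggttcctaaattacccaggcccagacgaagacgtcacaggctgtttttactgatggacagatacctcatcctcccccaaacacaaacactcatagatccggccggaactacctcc
Sema3e: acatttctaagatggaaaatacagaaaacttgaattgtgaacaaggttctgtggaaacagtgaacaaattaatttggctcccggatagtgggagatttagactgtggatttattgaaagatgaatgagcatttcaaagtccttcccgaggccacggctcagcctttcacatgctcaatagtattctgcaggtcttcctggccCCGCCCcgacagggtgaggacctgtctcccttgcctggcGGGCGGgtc
The Efna3 window held 3 GC boxes and the Sema3e window 2, while those of Efna4 and Sema3d held 1 CCAAT box each. Of all 32851 mouse promoter windows of this length, 32.7% held a GC box and 33.8% a CCAAT box. No match to a TATA box (TATAAA), an E-box (CACGTG), a cyclic AMP response element (TGACGTCA) or an AP-1 element (TGANTCA) was present in these 4 windows. Their G and C content was 63.6% for Efna3, 54.4% for Efna4, 46.8% for Sema3d and 48.0% for Sema3e. A match describes the letters only and is not a binding site.

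The mature organ of Corti expressed most of these genes. In wild-type, 67 of the 69 members tested had a mean of at least 1 CPM (97.1%, against 80.9% of all genes tested), and their median level was 36.6 CPM against 16.0 CPM. Levels of different genes are compared per kilobase of exon. On that scale Sema7a, a semaphorin held at the membrane by a lipid anchor, stood above all other members, with 188 ± 13.7 CPM per kilobase (mean ± SD, n = 3). It was followed by the secreted Sema3b with 47.1 ± 4.44, the transmembrane Sema4c with 27.7 ± 1.59, the plexin Plxna1 with 24.9 ± 0.934 and the secreted Sema3e with 24.5 ± 2.22 CPM per kilobase. Sema4c, Plxna1 and Sema3e lay within 2 SD of each other, so that their order is not resolved.

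**Figure D1:**
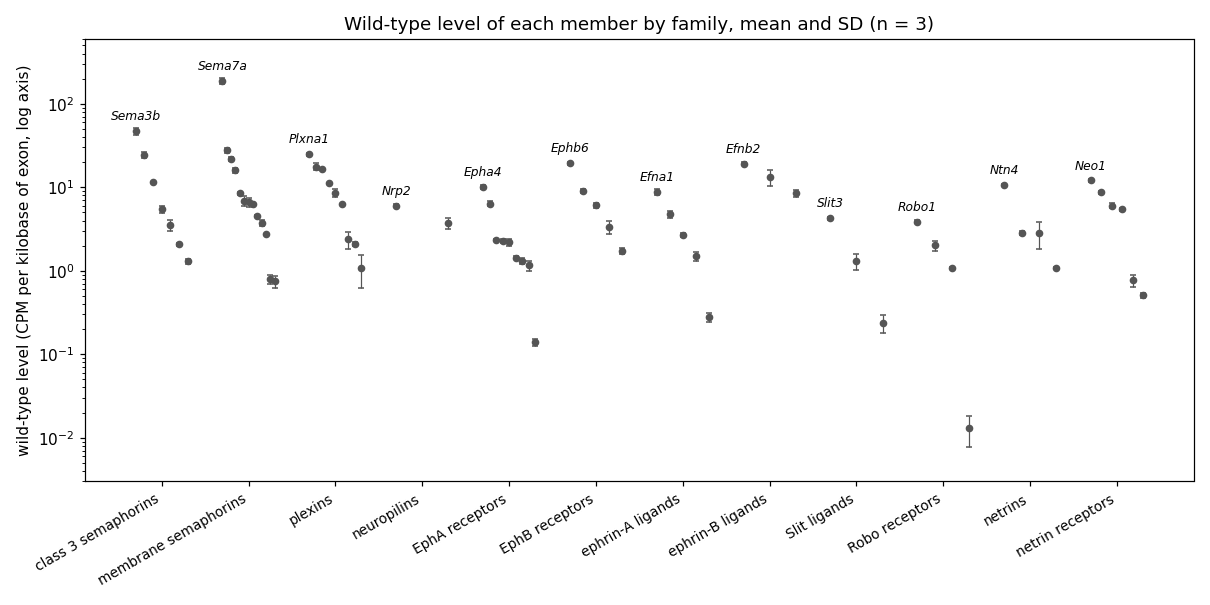
Wild-type level of each of the 70 members, in CPM per kilobase of exon on a log axis, by family (points are means, bars SD, n = 3, with the highest member of each family named). Levels range from 188 for Sema7a to 0.0129 for Robo3, which is at the detection floor.

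The leading member of each other family was lower. Among Eph receptors, Ephb6, which lacks kinase activity, led the EphB group with 19.4 ± 0.865 CPM per kilobase and Epha4, which binds both ephrin classes, the EphA group with 9.99 ± 0.571. The transmembrane ephrin Efnb2 had 19.1 ± 0.824 CPM per kilobase and the lipid-anchored Efna1 8.83 ± 0.822. For the netrin system, the receptor Neo1 reached 12.1 ± 0.580 CPM per kilobase and the laminin-related Ntn4 10.7 ± 0.240. The co-receptor Nrp2 had 6.04 ± 0.226, the repellent Slit3 4.27 ± 0.164 and its receptor class was led by Robo1 with 3.88 ± 0.154 CPM per kilobase. Efna3, the ephrin that changed most in the mutants, was among the 5 lowest members, with 0.277 ± 0.0317 CPM per kilobase.

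The question of the comparisons is how loss of clarin-1, of clarin-2 or of both, membrane proteins of hair cells needed for hearing, goes along with expression of guidance genes. In Clrn1-/- mice 2 of 69 members rose and 2 fell (5.80%, where 7.22% of all genes tested were called, 3.52% higher and 3.70% lower). Clrn2-/- mice had 1 higher and 1 lower member (2.90%, against 2.66% of all genes, 1.24% higher and 1.42% lower). Double mutants had 7 higher and 5 lower members (17.4%, against 9.90% of all genes, 5.88% higher and 4.02% lower). In all, 13 members were called in at least 1 mutant, 9 of them in double mutants and in neither single mutant. Efna3 and Sema3e were called in all 3 mutants. The median log2 fold change of the 69 members was 0.06 in Clrn1-/-, 0.02 in Clrn2-/- and -0.03 in double mutants, beside -0.0031, -0.0025 and 0.0010 for all genes tested.

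Most called members were ligands. Of 35 ligands, 5 rose and 3 fell in double mutants, and of 34 receptors tested 2 rose and 2 fell, a difference that was not tested. In the single mutants edgeR called no receptor, while it called 4 ligands in Clrn1-/- and 2 in Clrn2-/-. At an unadjusted p of at most 0.05 with no fold minimum, 18 receptors differed in Clrn1-/- (15 of them higher), where 37.9% of all genes tested did (19.3% higher), and 13 in Clrn2-/- (6 of them higher), where 27.6% of all genes did (13.8% higher). DESeq2 also called 0 receptors in both, and limma-voom 1 in Clrn1-/-, Dcc. Without the fold minimum, 26 members were higher and 7 lower in Clrn1-/- (13.6% and 13.3% of all genes tested), 6 higher and 8 lower in Clrn2-/- (7.14% and 7.07%) and 17 higher and 14 lower in double mutants (19.1% and 17.9%). Libraries of a mutant did not overlap with those of wild-type for 34 members in Clrn1-/- (40.2% of all genes), 23 in Clrn2-/- (29.0%) and 37 in double mutants (48.2%).

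**Figure D2:**
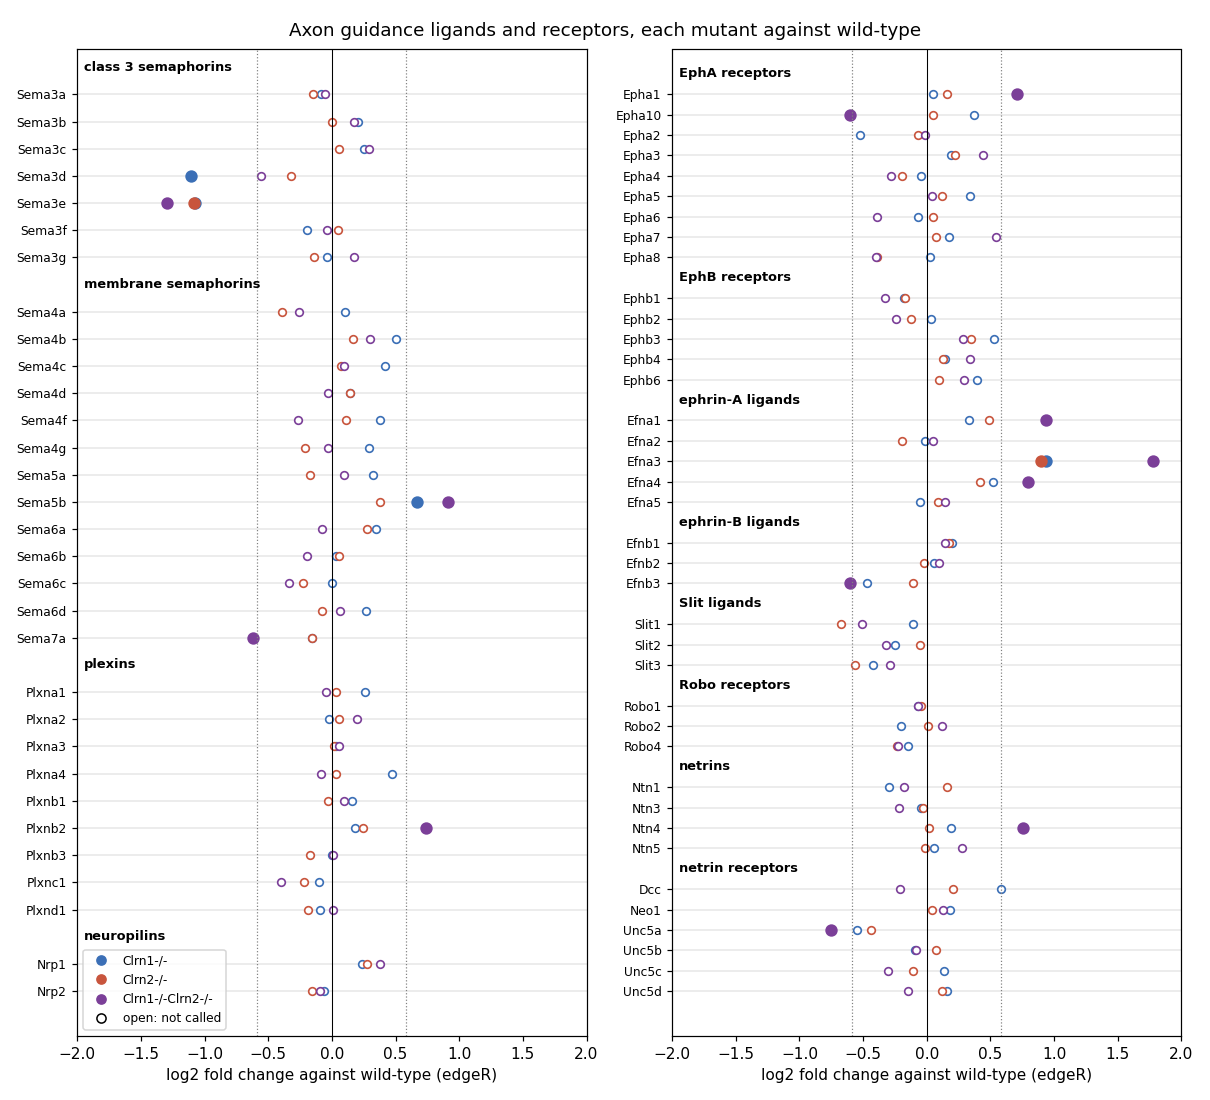
Log2 fold change (edgeR) of the 69 members tested in Clrn1-/-, Clrn2-/- and Clrn1-/-Clrn2-/- mice against wild-type, by family, with filled points for called members and dotted lines at 1.5-fold. Most members lie near 0, with Sema3e at -1.29 and Efna3 at 1.78 in double mutants as the extremes.

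Markers of several cell types differed between the genotypes as well. The summed level of the 15 neuron markers listed, all of them detected, was 15463 to 17067 CPM in wild-type, 13714 to 14303 in Clrn1-/-, 13429 to 15659 in Clrn2-/- and 10558 to 10877 in double mutants, where 5 of the 15 fell and 2 rose. The 10 supporting cell markers summed to 1265 to 1314 CPM in wild-type and 1615 to 1668 in double mutants, with 4 higher and 1 lower. Macrophage markers, 9 in number and none at 0, summed to 129 to 169 CPM in wild-type, 209 to 226 in Clrn1-/-, 150.1 to 193 in Clrn2-/- and 209 to 246 in double mutants. The 10 hair cell markers summed to 351 to 398 CPM in wild-type, 361 to 436 in Clrn1-/-, 407 to 521 in Clrn2-/- and 488 to 516 in double mutants, so that Clrn2-/- and double mutant libraries were above wild-type. This was not a rise of all hair cell markers. Ocm gained most, from 67.1 ± 7.82 to 120 ± 16.5 CPM with Clrn2 alone mutated, and to 131 ± 7.84 CPM in double mutants. Only Ocm and Strc were called higher, in both of these mutants. Gfi1 was called lower in double mutants, as were Gfi1 and Slc17a8 in Clrn1-/-. The 10 fibroblast markers summed to 8533 to 10317 CPM in wild-type libraries, 6409.6 to 6996 in Clrn1-/-, 6306 to 6807 in Clrn2-/- and 8705 to 9959 in double mutants, with both single mutants below wild-type. Coch and Otos made up most of this sum, with 5382 ± 798 and 1766 ± 391 CPM in wild-type. In Clrn1-/- Otos, Coch and Fn1 were called lower, and Col3a1, Lum and Postn higher. In Clrn2-/- only Otos and Coch were called, both lower. Summed bone markers were also below wild-type in both single mutants, at 1752 to 1866 CPM in Clrn1-/- and 1840.4 to 1887 in Clrn2-/- against 1969 to 2184, and summed pericyte and smooth muscle markers in Clrn2-/-, at 285 to 293 CPM against 349 to 399. Spp1 made up most of the bone sum, with 1931 ± 136 CPM in wild-type. No bone marker was called lower in a single mutant, and Dmp1 was called higher in Clrn1-/-, from 58.7 ± 9.06 to 117 ± 13.8 CPM. Summed endothelial, Schwann cell, melanocyte and stria, skeletal muscle and cell division markers of each mutant overlapped with wild-type. Red blood cell markers summed to 708 to 1156 CPM in wild-type and 285 to 387, 436 to 654 and 545 to 733 in Clrn1-/-, Clrn2-/- and double mutants. In bulk tissue, fewer cells of a type and less RNA per cell cannot be told apart, and the part of these shifts in the results on guidance genes was not tested.

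Class 3 semaphorins, the secreted members of the family, held the largest decreases. Sema3e, which binds plexin-D1 without a neuropilin, had 225, 209 and 249.9 CPM in the wild-type libraries. It had 99.4, 108 and 116 CPM in Clrn1-/-, 113, 107 and 103 in Clrn2-/- and 91.9, 90.6 and 96.6 in double mutants. Every mutant library was below every wild-type library, and the single mutants overlapped with each other. The log2 fold change of Sema3e was -1.08 (SE 0.07, adjusted p = 1.23e-08) in Clrn1-/-, -1.08 (SE 0.07, adjusted p = 1.17e-07) in Clrn2-/- and -1.29 (SE 0.07, adjusted p = 1.08e-09) in double mutants. Double mutants differed from Clrn1-/- by -0.21 (SE 0.07, adjusted p = 0.0226) and from Clrn2-/- by -0.21 (SE 0.07, adjusted p = 0.0261) on the log2 scale, below the fold minimum.

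Sema3d, a secreted semaphorin known from neural crest and vessel patterning, fell mainly in Clrn1-/- mice. It had 50.6, 47.2 and 42.5 CPM in wild-type, 21.1, 21.2 and 22.9 in Clrn1-/-, 33.4, 41.4 and 37.6 in Clrn2-/- and 33.9, 31.9 and 29.5 in double mutants. Libraries of all 3 mutants were below those of wild-type, and those of Clrn1-/- were below all others. The change was -1.10 (SE 0.08, adjusted p = 1.16e-07) on the log2 scale in Clrn1-/-, and it was -0.32 (SE 0.08, adjusted p = 0.0123) in Clrn2-/- and -0.56 (SE 0.08, adjusted p = 4.18e-05) in double mutants, neither of which reached 1.5-fold. Clrn1-/- was lower than Clrn2-/- by -0.78 (SE 0.08, adjusted p = 7.62e-06), the one member called between the single mutants (1.45% of members, against 4.73% of all genes, 2.34% of them lower).

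Sema3a, the prototype repellent of the class, lies between Sema3d and Sema3e on chromosome 5 and was not called, at -0.09, -0.15 and -0.06 (adjusted p = 0.439, 0.221 and 0.604) in Clrn1-/-, Clrn2-/- and double mutants. Of the 2 other genes tested in that stretch, Gm10108 was called lower in double mutants (-0.70, adjusted p = 0.0099), as were 4.02% of all genes. Gm43719 was not (0.08, adjusted p = 0.824), and neither was called in the single mutants. Sema3e and Sema3d are on the chromosome of Clrn2, at 31.2 Mb and 32.9 Mb from it. Plxnd1, the receptor of Sema3e, was among the 10 highest members per kilobase in wild-type and had log2 fold changes of -0.10, -0.19 and 0.01 (adjusted p = 0.357, 0.102 and 0.954). The neuropilin Nrp1 was at 0.38 (SE 0.09, adjusted p = 0.00221) and Nrp2 at -0.09 (SE 0.05, adjusted p = 0.165) on the log2 scale in double mutants, below the fold minimum.

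Among the 13 membrane semaphorins, Sema5b rose and Sema7a fell. Sema5b, a transmembrane semaphorin with thrombospondin repeats, had 6.43, 5.04 and 5.52 CPM in wild-type, 7.15, 9.44 and 10.2 in Clrn1-/-, 7.10, 6.73 and 8.26 in Clrn2-/- and 10.8, 10.7 and 10.5 in double mutants. All mutant libraries were above those of wild-type. Its log2 fold change was 0.67 (SE 0.13, adjusted p = 0.00116) in Clrn1-/-, 0.38 (SE 0.13, adjusted p = 0.0623) in Clrn2-/- and 0.91 (SE 0.13, adjusted p = 3.32e-05) in double mutants. Without Clrn1-/- replicate 3, the highest of its group, the change in Clrn1-/- was 0.56 and no longer called.

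Sema7a, the most abundant member per kilobase, had 599, 589.9 and 672 CPM in wild-type, 541, 563 and 569 in Clrn1-/-, 597, 543 and 529 in Clrn2-/- and 396, 402 and 416 in double mutants. Double mutant libraries were below all others. The log2 fold change was -0.62 (SE 0.06, adjusted p = 5.42e-07) in double mutants, -0.15 (SE 0.06, adjusted p = 0.0565) in Clrn1-/- and -0.16 (SE 0.06, adjusted p = 0.0791) in Clrn2-/-. The call in double mutants rested on the fold minimum, and the change was -0.57 both with library size as the only scaling and without wild-type replicate 3. Plxnc1, its plexin receptor, had 9.06 ± 3.86 CPM (mean ± SD, n = 3) in wild-type and 6.86 ± 1.44 in double mutants, with a log2 fold change of -0.40 (SE 0.25, adjusted p = 0.239).

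Sema4f, a transmembrane semaphorin, was called between mutants and in the interaction, and in no mutant against wild-type. It had 18.9, 18.9 and 21.9 CPM in wild-type, 25.1, 26.2 and 26.3 in Clrn1-/-, 23.2, 19.8 and 21.4 in Clrn2-/- and 17.1, 16.5 and 16.2 in double mutants. Clrn1-/- libraries were above and double mutant libraries below all of wild-type. Double mutants were lower than Clrn1-/- by -0.64 (SE 0.07, adjusted p = 6.61e-06) on the log2 scale.

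Of the 9 plexins, the semaphorin receptors, Plxnb2 alone was called in a mutant against wild-type. It had 131, 129 and 125 CPM in wild-type, 147, 146 and 144 in Clrn1-/-, 156, 136 and 162 in Clrn2-/- and 217, 212 and 214 in double mutants. The double mutant libraries were above all others, and single mutants were above wild-type. Its log2 fold change was 0.74 (SE 0.05, adjusted p = 3.24e-08) in double mutants, 0.18 (SE 0.05, adjusted p = 0.0181) in Clrn1-/- and 0.24 (SE 0.05, adjusted p = 0.00584) in Clrn2-/-. Sema4c and Sema4d, class 4 ligands of B-type plexins, had log2 fold changes of 0.10 and -0.03 (adjusted p = 0.216 and 0.802) in double mutants. The other 8 plexins had log2 fold changes from -0.40 for Plxnc1 to 0.20 for Plxna2 there.

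Ephrin-A genes held the largest increases. Efna1, Efna3 and Efna4, which encode lipid-anchored ligands of EphA receptors, rose together in double mutants, while Efna2 and Efna5 had log2 fold changes of 0.05 and 0.14 (adjusted p = 0.725 and 0.166). Efna1 had 15.4, 15.2 and 17.9 CPM in wild-type, 21.0, 18.9 and 21.3 in Clrn1-/-, 23.1, 20.6 and 24.4 in Clrn2-/- and 30.8, 30.1 and 31.9 in double mutants. All mutant libraries were above wild-type, and double mutants were above both single mutants. The log2 fold change of Efna1 was 0.94 (SE 0.08, adjusted p = 1.6e-07) in double mutants, 0.33 (SE 0.08, adjusted p = 0.0051) in Clrn1-/- and 0.49 (SE 0.08, adjusted p = 0.000577) in Clrn2-/-, and double mutants exceeded Clrn1-/- by 0.60 (SE 0.08, adjusted p = 2.15e-05).

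Efna3 had 0.759, 0.657 and 0.607 CPM in wild-type, 1.01, 1.14 and 1.69 in Clrn1-/-, 0.968, 1.53 and 1.29 in Clrn2-/- and 2.62, 2.17 and 2.17 in double mutants, from 24 to 84 counts per library. Again no mutant library overlapped with wild-type, and double mutants were above the single mutants. Efna3 rose with a log2 fold change of 0.93 (SE 0.24, adjusted p = 0.01) in Clrn1-/-, 0.90 (SE 0.25, adjusted p = 0.0228) in Clrn2-/- and 1.78 (SE 0.23, adjusted p = 1.69e-05) in double mutants, a 3.42-fold rise. Double mutants exceeded Clrn1-/- by 0.84 (SE 0.21, adjusted p = 0.00612) and Clrn2-/- by 0.88 (SE 0.21, adjusted p = 0.00607). The single mutant calls were less firm than that of double mutants. With unstranded counts the changes were 0.73 and 0.75 and not called. The call in Clrn1-/- was lost without Clrn1-/- replicate 3 (0.68), and that in Clrn2-/- without wild-type replicate 2 (0.89) or 3 (0.83) or Clrn2-/- replicate 2 (0.74) or 3 (0.89).

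Efna4 had 2.05, 2.55 and 2.53 CPM in wild-type, 3.26, 3.49 and 3.45 in Clrn1-/-, 2.85, 3.00 and 3.71 in Clrn2-/- and 3.87, 4.01 and 4.49 in double mutants. All mutant libraries were above wild-type. Against wild-type, Efna4 changed by 0.80 (SE 0.14, adjusted p = 0.000248) on the log2 scale in double mutants, and by 0.52 (SE 0.14, adjusted p = 0.0116) and 0.42 (SE 0.14, adjusted p = 0.0564) in Clrn1-/- and Clrn2-/-, below the fold minimum.

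The 3 ephrin-A genes that rose lie within one stretch of chromosome 3, 30.4 Mb from Clrn1. In Gencode M21 on GRCm38, Efna1 is at chr3:89271733-89281142, Efna3 at chr3:89313899-89322965 and Efna4 at chr3:89333390-89338028, all on the minus strand. Within 100 kb on either side of the group, 23 other genes were tested. By edgeR 0 of them were called in Clrn1-/- or Clrn2-/-, where 7.22% and 2.66% of all genes tested were. In double mutants 1 was, against 9.90% of all genes. It was Muc1, a membrane mucin, with a log2 fold change of 0.99 (adjusted p = 0.0157). The median change of these 23 genes was 0.01, -0.07 and 0.07 on the log2 scale in Clrn1-/-, Clrn2-/- and double mutants. In double mutants Efna1, Efna3 and Efna4 were called and the tested genes around them, Muc1 excepted, were not, as the plot of the changes by distance shows. This contrast depends on the fold minimum, since several of these genes passed the test below 1.5-fold. The largest such changes were Zbtb7b at 0.55 (adjusted p = 1.43e-07), Cks1b at 0.52 (adjusted p = 0.00973) and Fam189b at -0.50 (adjusted p = 1.03e-06).

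**Figure D3:**
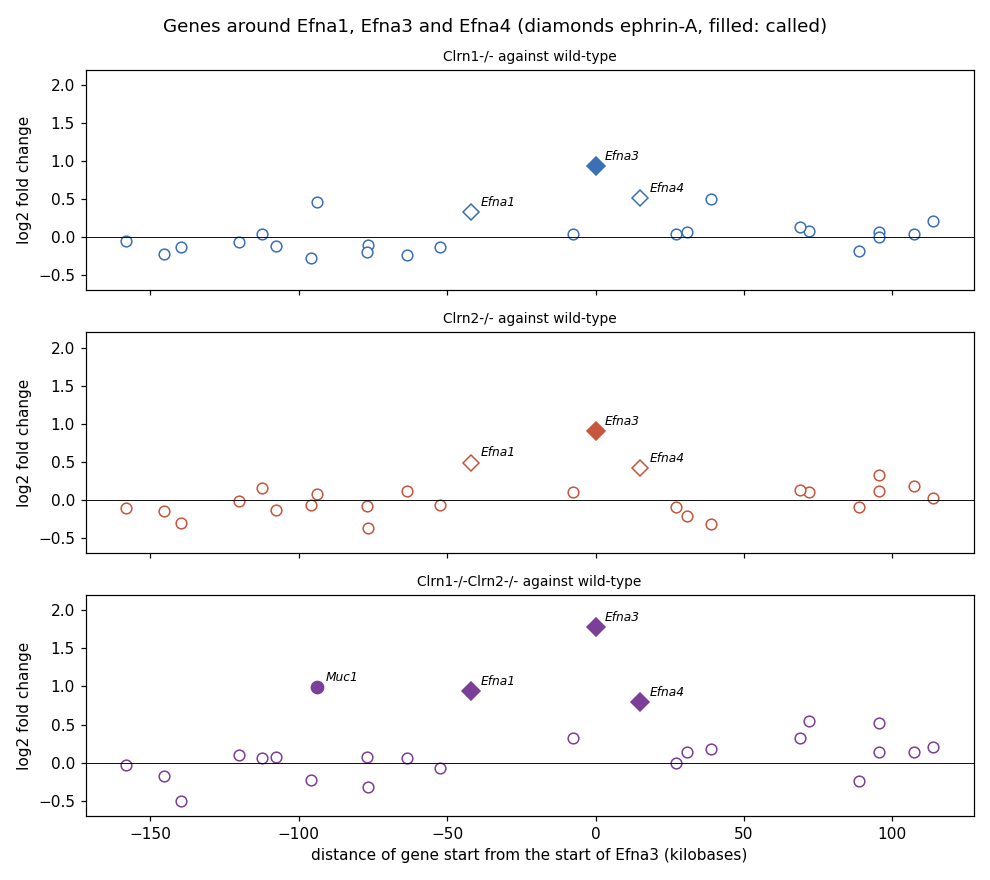
Log2 fold change of the 26 genes tested around Efna1, Efna3 and Efna4 by the distance of their start from that of Efna3 in kilobases, for each mutant against wild-type (diamonds ephrin-A genes, filled points called). In double mutants the ephrin-A genes are at 0.94, 1.78 and 0.80, and Muc1 at 0.99 is the one other called gene.

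Among the EphA receptors, Epha1 rose and Epha10 fell in double mutants. Epha1 had 9.38, 8.38 and 9.24 CPM in wild-type, 8.60, 9.03 and 10.3 in Clrn1-/-, 9.87, 8.72 and 11.5 in Clrn2-/- and 14.3, 14.4 and 15.5 in double mutants. Double mutant libraries were above all others, which overlapped. Its log2 fold change was 0.71 (SE 0.10, adjusted p = 3.35e-05) in double mutants, 0.05 (SE 0.10, adjusted p = 0.761) in Clrn1-/- and 0.16 (SE 0.10, adjusted p = 0.333) in Clrn2-/-, and double mutants exceeded Clrn1-/- by 0.66 (SE 0.10, adjusted p = 9.84e-05).

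Epha10, an Eph receptor without kinase activity, went the other way. It had 8.26, 7.29 and 9.54 CPM in wild-type, 9.30, 11.7 and 11.4 in Clrn1-/-, 7.99, 8.91 and 9.05 in Clrn2-/- and 5.87, 5.29 and 5.36 in double mutants. Double mutant libraries were below all others, and those of the single mutants overlapped with wild-type. The change in double mutants was -0.61 (SE 0.12, adjusted p = 0.000617) against wild-type, -0.97 (SE 0.11, adjusted p = 9.95e-06) against Clrn1-/- and -0.65 (SE 0.12, adjusted p = 0.000653) against Clrn2-/- on the log2 scale. The call against wild-type was lost with library size as the only scaling (-0.56), with unstranded counts (-0.58), without wild-type replicate 3 (-0.51) and without double mutant replicate 2 (-0.58).

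Epha2 and Epha4, other EphA receptors, were not called in double mutants. Epha2, a receptor of ephrin-A1, had 6.74 ± 0.246 CPM (mean ± SD, n = 3) in wild-type and 6.69 ± 0.774 in double mutants, with a log2 fold change of -0.01 (SE 0.11, adjusted p = 0.953), and in Clrn1-/- of -0.52 (SE 0.12, adjusted p = 0.00365). Epha4, the most abundant EphA receptor, had 80.5 ± 4.60 CPM in wild-type and 66.4 ± 0.313 in double mutants, with a log2 fold change of -0.28 (SE 0.05, adjusted p = 0.000298), past the test but below 1.5-fold. Efna1 and Epha1, both called higher in double mutants, are not among the ligand and receptor pairs listed here, which cover only some of the known partners.

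Efnb3 was the one called member among the transmembrane ephrins. It had 45.5, 50.1 and 32.1 CPM in wild-type, 24.6, 34.6 and 32.5 in Clrn1-/-, 32.1, 44.0 and 42.5 in Clrn2-/- and 32.9, 25.3 and 25.9 in double mutants. Wild-type libraries were widely spread and overlapped with those of all mutants. The log2 fold change was -0.61 (SE 0.16, adjusted p = 0.00769) in double mutants, and the call was lost with library size as the only scaling (-0.57) and when wild-type replicate 1 (-0.56) or 2 (-0.48) or double mutant replicate 2 (-0.54) or 3 (-0.56) was left out. Its receptors Ephb1 and Ephb3 had log2 fold changes of -0.33 (SE 0.11, adjusted p = 0.0244) and 0.28 (SE 0.07, adjusted p = 0.00481) there. In Clrn1-/- and Clrn2-/- Ephb3 was at 0.53 and 0.35 (adjusted p = 4.8e-05 and 0.0033), past the test and below 1.5-fold. Ephb1 was at -0.18 and -0.17 in them (adjusted p = 0.233 and 0.323). No EphB receptor was called by edgeR, DESeq2 or limma-voom in any mutant against wild-type, while 3, 2 and 5 of the 5 had an unadjusted p of at most 0.05 by edgeR in Clrn1-/-, Clrn2-/- and double mutants, as had 37.9%, 27.6% and 45.2% of all genes tested.

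In the netrin system, Ntn4 rose and Unc5a fell in double mutants. Ntn4, a netrin related to laminins and found in basement membranes, had 39.4, 39.3 and 40.9 CPM in wild-type, 47.0, 45.3 and 44.5 in Clrn1-/-, 42.0, 36.3 and 42.6 in Clrn2-/- and 64.6, 66.5 and 71.1 in double mutants. The double mutant libraries were above all others, and Clrn2-/- overlapped with wild-type. Its log2 fold change was 0.76 (SE 0.06, adjusted p = 7.32e-08) in double mutants, 0.19 (SE 0.06, adjusted p = 0.0224) in Clrn1-/- and 0.02 (SE 0.06, adjusted p = 0.888) in Clrn2-/-, and double mutants exceeded Clrn2-/- by 0.74 (SE 0.06, adjusted p = 5.09e-07).

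Unc5a, a receptor for repulsion by netrin-1, had 34.8, 35.6 and 38.1 CPM in wild-type, 23.0, 24.4 and 26.6 in Clrn1-/-, 29.8, 26.0 and 24.4 in Clrn2-/- and 21.6, 22.0 and 20.8 in double mutants. All mutant libraries were below wild-type. Unc5a fell with a log2 fold change of -0.75 (SE 0.07, adjusted p = 8.93e-07) in double mutants, and had -0.55 (SE 0.07, adjusted p = 4.75e-05) and -0.44 (SE 0.07, adjusted p = 0.000806) in Clrn1-/- and Clrn2-/-, which passed the test below 1.5-fold. Its ligand Ntn1 had 17.7 ± 6.42 CPM (mean ± SD, n = 3) in wild-type and 15.7 ± 1.69 in double mutants, with a log2 fold change of -0.18 (SE 0.20, adjusted p = 0.532).

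Dcc, the receptor for attraction by netrin-1, differed between mutants. It had 6.74, 7.12 and 6.25 CPM in wild-type, 9.62, 10.6 and 9.82 in Clrn1-/-, 7.61, 8.97 and 6.66 in Clrn2-/- and 5.93, 5.29 and 6.14 in double mutants. Clrn1-/- libraries were above and double mutant libraries below those of all other groups. Double mutants were lower than Clrn1-/- by -0.79 (SE 0.11, adjusted p = 4.27e-05) on the log2 scale. Against wild-type, Dcc had 0.58 (SE 0.11, adjusted p = 0.00077) in Clrn1-/-, at the edge of the fold minimum and called in 13 of 21 alternative settings, and -0.21 (SE 0.11, adjusted p = 0.155) in double mutants. Neo1, the most abundant netrin receptor per kilobase, was at 0.18, 0.04 and 0.13 on the log2 scale in Clrn1-/-, Clrn2-/- and double mutants.

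No Slit or Robo gene was called against wild-type by edgeR, DESeq2 or limma-voom, and 2, 3 and 4 of the 6 tested had an unadjusted p of at most 0.05 by edgeR in Clrn1-/-, Clrn2-/- and double mutants, all of them lower, as had 18.6%, 13.8% and 22.0% of all genes tested in that direction. Slit3, the most abundant repellent of the family, had 25.9 ± 0.994 CPM (mean ± SD, n = 3) in wild-type, against 19.3 ± 1.20 in Clrn1-/-, 17.5 ± 1.49 in Clrn2-/- and 21.2 ± 0.509 in double mutants. Its log2 fold changes were -0.42 (SE 0.07, adjusted p = 0.000259), -0.56 (SE 0.07, adjusted p = 6.27e-05) and -0.29 (SE 0.07, adjusted p = 0.00324), all past the test and below 1.5-fold. Slit2, 2.52 Mb from Clrn2 and the nearest member to it, had -0.05 (SE 0.13, adjusted p = 0.841) in Clrn2-/-. Robo1, the main Robo receptor, was at -0.07, -0.05 and -0.07 (adjusted p = 0.335, 0.588 and 0.331).

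**Figure D4:**
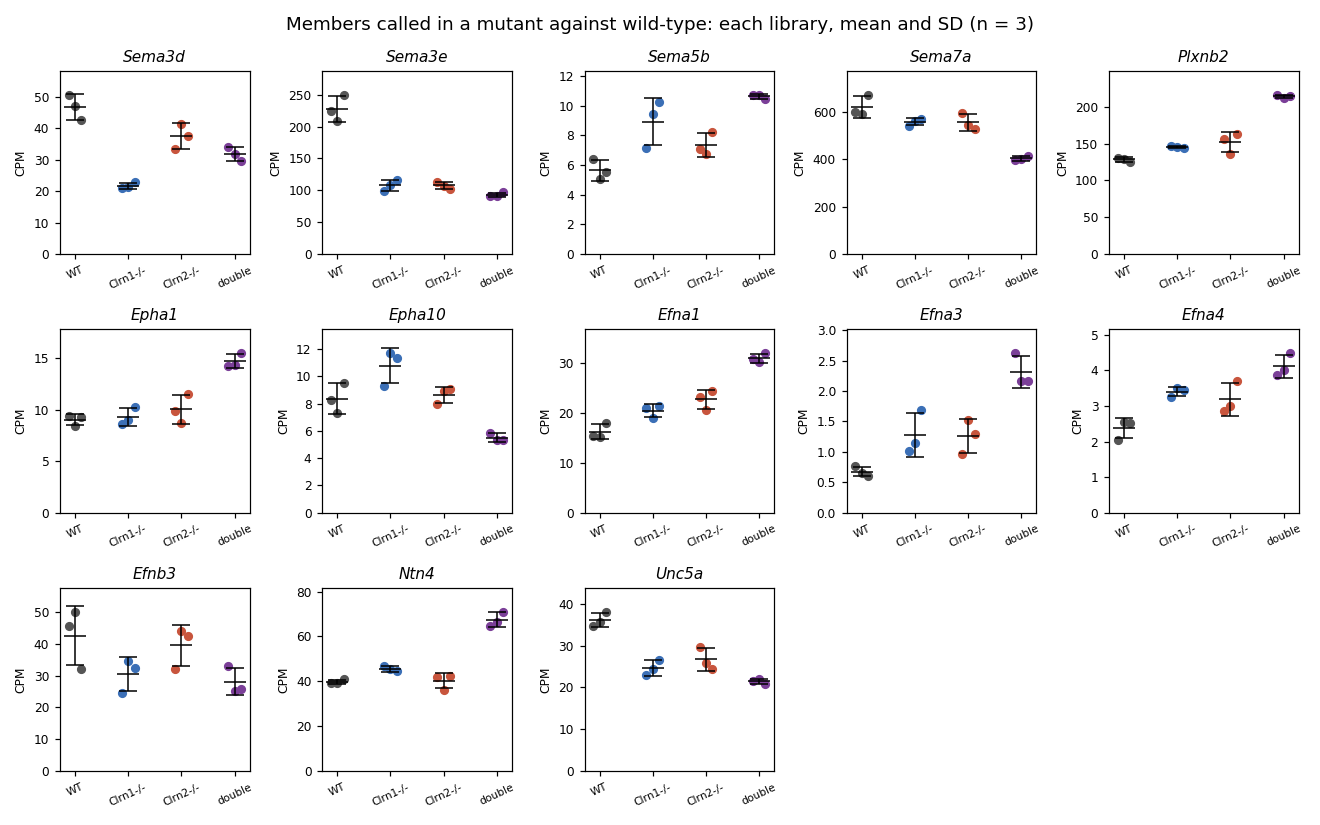
Level in CPM of the 13 members called in a mutant against wild-type, in each of the 12 libraries by genotype (points libraries, bars mean and SD, n = 3, axes from 0). Efna3 steps from 0.674 CPM in wild-type to 2.32 in double mutants, while Sema3e drops from 228 CPM to 108 in both single mutants.

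The mutants were also compared with each other. Double mutants differed from Clrn1-/- in 3 higher members, Epha1, Efna1 and Efna3, and 3 lower ones, Sema4f, Epha10 and Dcc (8.70% of members, against 7.23% of all genes, 4.62% higher and 2.61% lower). They differed from Clrn2-/- in Efna3 and Ntn4, which were higher, and Epha10, which was lower (4.35%, against 5.10% of all genes, 3.67% higher and 1.43% lower). The increase in Efna1 over Clrn1-/- was 0.54 and not called without Clrn1-/- replicate 2, and 0.57 without double mutant replicate 3.

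The interaction asks whether loss of both clarins changed a gene by more or less than the sum of both single losses on the log2 scale. It needed an adjusted p no higher than 0.05 but no fold minimum. Wild-type enters the interaction too, so that breeding and genotype cannot be told apart in it either. The interaction was called for 21 of 69 members, 8 higher and 13 lower (30.4%, against 17.4% of all genes, 9.32% higher and 8.06% lower). Sema3e was at 0.87 (SE 0.09, adjusted p = 1.8e-05) and Sema3d at 0.87 (SE 0.11, adjusted p = 0.00011), where the positive sign means that double mutants had fallen less than the sum of the single mutants. The opposite held for Epha10 at -1.02 (SE 0.16, adjusted p = 0.00041) and Dcc at -0.999 (SE 0.15, adjusted p = 0.00036), which were higher in Clrn1-/- than in wild-type libraries on average and lower in double mutants.

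Ntn4 at 0.55 (SE 0.08, adjusted p = 0.000317) and Plxnb2 at 0.32 (SE 0.07, adjusted p = 0.00776) rose more in double mutants than the single changes add up to. In the ephrin-A group edgeR called no interaction, and the changes of Efna3 summed nearly to that of double mutants, with an interaction of -0.06 (SE 0.32, adjusted p = 0.932). Efna1 had an interaction of 0.11 (SE 0.11, adjusted p = 0.541) and Efna4 of -0.14 (SE 0.19, adjusted p = 0.675). Of the membrane semaphorins, 6 of 13 had a called interaction, all of them negative, with Sema4f at -0.75 (SE 0.10, adjusted p = 0.000128) and Sema6a at -0.70 (SE 0.08, adjusted p = 3.31e-05) as the largest.

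**Figure D5:**
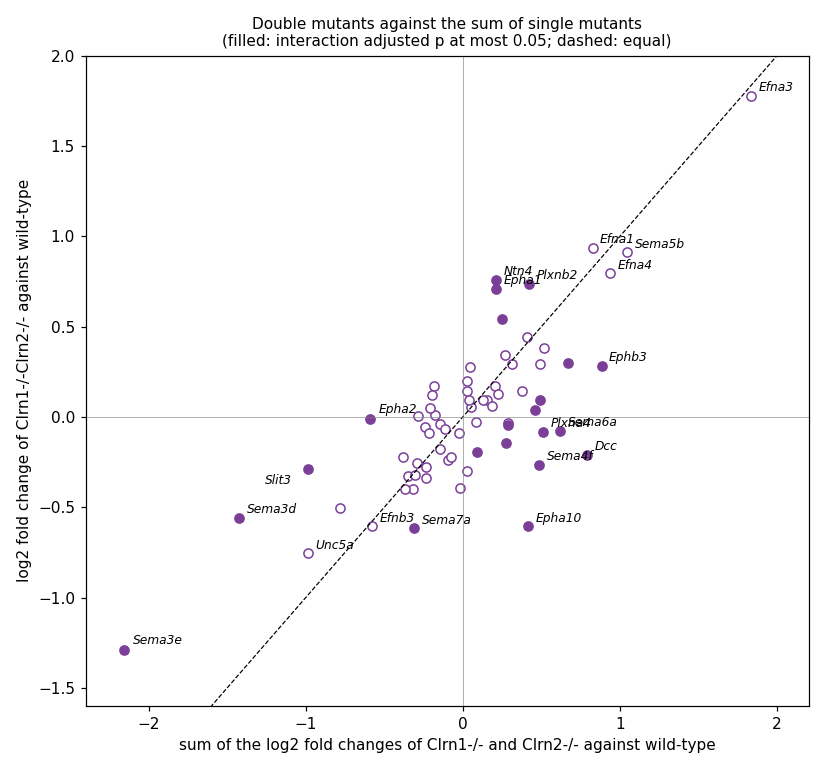
Log2 fold change of the 69 members in Clrn1-/-Clrn2-/- mice against the sum of their changes in Clrn1-/- and Clrn2-/- mice (dashed line equal, filled points called interaction). Efna3 lies near the line at 1.78, Sema3e and Sema3d above it, and Epha10 and Dcc below it.

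Other genes of axon guidance, 71 co-receptors, adhesion partners and signal transducers outside the families above, were all tested. In Clrn1-/- 2 rose and 2 fell (5.63%), in Clrn2-/- 1 fell (1.41%), and in double mutants 3 rose and 5 fell (11.3%), beside the shares of all genes given above. Rtn4r, the Nogo receptor, was 13.5 ± 1.63 CPM in wild-type and 7.29 ± 0.496 in double mutants, where it fell with a log2 fold change of -0.90 (SE 0.10, adjusted p = 2.13e-06), and of -0.71 (SE 0.09, adjusted p = 4.95e-05) in Clrn1-/-. Crmp1, which transmits semaphorin 3A signals to the cytoskeleton, was at -0.88 (SE 0.07, adjusted p = 5.87e-08) in double mutants. Hjv, the hemojuvelin member of the repulsive guidance family, known for iron regulation, was called lower in all 3 mutants, from 0.679 ± 0.264 CPM in wild-type to 0.107 ± 0.0461, 0.0954 ± 0.0348 and 0.125 ± 0.104 in Clrn1-/-, Clrn2-/- and double mutants, which is at the level of 3 counts per library and gives no usable fold.

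Among the increases, Rnd1, a small GTPase that binds plexins, was at 0.95 (SE 0.11, adjusted p = 5.2e-06), the L1-type adhesion molecule Chl1 at 0.72 (SE 0.10, adjusted p = 3.47e-05) and Flrt3, a ligand of Unc5 receptors, at 0.63 (SE 0.09, adjusted p = 6.93e-05) on the log2 scale in double mutants. In Clrn1-/- the called increases were Plxdc1 at 0.71 (SE 0.17, adjusted p = 0.00634) and Islr2, a partner of neurotrophin receptors, at 0.59 (SE 0.08, adjusted p = 6.85e-05).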

How the data were processed

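Organs of Corti of 12 samples had gone through selection of polyadenylated RNA and a stranded library kit. For each gene the authors took read counts from STAR, run on GRCm38.p6 with a Gencode annotation, and the deposited values are these raw counts, with no normalization, filter or pooling. The reverse-strand column was used, after the kit. Totals were 30008679 to 41049302 counts per library, and the floor of 3 counts covers counting error only. Coordinates and exon lengths were those of Gencode M21, and promoters came from RefSeq, which matched 60 of the 70 members.

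The main test was the quasi-likelihood test of edgeR 4.0.16 (R 4.3.3) with TMM scaling, on 19052 genes left by filterByExpr (minimum count 10). One fit held all 12 libraries and genotype as its single factor, and p-values were adjusted by Benjamini-Hochberg over all 19052 genes. The script was tested on simulated data. Standard errors were derived from the test statistic. Alternatives were limma-voom (limma 3.58.1), which is the test of the study, DESeq2 1.42.0, library size as the only scaling, no filter, the FPKM filter of the study (0.1 in 1 library), fits of the compared genotypes only, a block for the replicate number, calls with no fold minimum, counts of both strands, and fits that left out 1 library each.

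Genes named were all members called in a mutant, between mutants or in the interaction (the last in the closing section), the most abundant member of each family, listed partners of called members, and up to 3 called genes per direction of the other guidance genes. Members and lists were chosen with earlier results of these data known. Libraries of a genotype differed by more than sampling noise (chi-square 6.61 to 16.3 per degree of freedom). Deviations of libraries with the same replicate number from their group means, over 12453 genes with at least 5 CPM, correlated above 0.1 in 7 of 18 pairs. All 3 pairs of wild-type with Clrn1-/- were above it (0.291, 0.134 and 0.111), which held for no other 2 genotypes. Wild-type with double mutants had 0.257, -0.279 and 0.306, and other matchings of the libraries were not compared. Whether the numbers pair any libraries is therefore not known, since no label gives them a meaning.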

Additional observations from a re-analysis of the deposited data

Results flagged for a closer look

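The effect of losing both clarins differed from the sum of the single effects, by the interaction test of edgeR over all genes, for 21 members. The difference is given on the log2 scale. For class 3 semaphorins it was 0.87 for Sema3d and 0.87 for Sema3e. For membrane semaphorins it was -0.37 for Sema4b, -0.39 for Sema4c, -0.75 for Sema4f, -0.70 for Sema6a, -0.28 for Sema6b and -0.31 for Sema7a. Plexins differed by -0.33 for Plxna1, -0.59 for Plxna4 and 0.32 for Plxnb2.

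Among Eph receptors the difference was 0.50 for Epha1, 0.58 for Epha2, -0.42 for Epha5, 0.29 for Epha7, -1.02 for Epha10 and -0.60 for Ephb3. It was 0.70 for Slit3, 0.55 for Ntn4, -0.999 for Dcc and -0.42 for Unc5d. The call was lost for Epha1 in 5, for Epha2 in 4, for Epha7 in 6 and for Sema6b in 1 of the settings that leave out a library.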

How the results depend on the processing

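No value of a named member reversed a called direction under any alternative. Without the fold minimum, higher and lower members were 26 and 7 in Clrn1-/-, 6 and 8 in Clrn2-/- and 17 and 14 in double mutants, and 20, 34 and 28 differed between Clrn1-/- and Clrn2-/-, double mutants and Clrn1-/-, and double mutants and Clrn2-/- (18.5%, 30.4% and 27.6% of all genes). Library size alone left 2 lower members in double mutants, and unstranded counts 0 higher members in Clrn2-/- by edgeR, where 14 were higher at an unadjusted p of at most 0.05 (13.6% of all genes). Leaving out 1 library gave 1 to 3 higher and 2 to 4 lower members in Clrn1-/- (1 and 4 without Clrn1-/- replicate 3), 0 to 1 higher and 1 to 2 lower in Clrn2-/- (0 higher without wild-type replicate 2 or 3 or Clrn2-/- replicate 2 or 3, with 10 to 15 higher at an unadjusted p of at most 0.05, beside 12.2% to 14.4% of all genes, and 2 lower without wild-type replicate 2 or 3 or Clrn2-/- replicate 1), 7 higher and 3 to 7 lower in double mutants (3 without double mutant replicate 2), and 3 to 5 between double mutants and Clrn2-/- (5 without Clrn2-/- replicate 3). DESeq2, limma-voom, both other filters and the fit of the compared genotypes alone kept each of these counts within 1.5 times. A block for the replicate number changed no call of a member against wild-type, with 7 higher and 5 lower in double mutants, and 22 interactions were called. Members near 1 CPM, such as Efna3 with 24 to 84 counts per library, are limited by depth, and those near 1.5-fold by the fold minimum. The interaction could not be fitted within the compared genotypes alone. The cause of the lost calls was not tested.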
